A study of Homo sapiens with 23 samples.

Results

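The loci described here are 4 stretches of the human genome made of tandem gene copies, given as spans on hg19. They are the 5S rRNA gene array on chromosome 1, which holds RNA5S1 and its copies (chr1:228740000-228785000), a block of tRNA gene repeats on chromosome 1 (chr1:161400000-161450000), the REXO1L1 repeats on chromosome 8 (chr8:86720000-86850000) and the USP17L repeats on chromosome 4 (chr4:9200000-9400000). The spans were selected on the deposited values of their regions, as places that stood among the highest of some lists in earlier results of these data, so a high rank is a description here and not a finding. Every called region with at least 1 bp in a span was taken as a member. There were 278 such regions of 1741457 in 21 lists, with 22 over the 5S rRNA genes, 63 over the tRNA gene repeats, 80 over the REXO1L1 repeats and 113 over the USP17L repeats.

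The 5S rRNA is a small RNA of the large ribosomal subunit, and its genes stand head to tail in an array that RNA polymerase III transcribes from internal promoters. The tRNA genes are read by the same polymerase, and in budding yeast they are known to slow replication forks. REXO1L1 belongs to a family of tandem copies related to the RNA exonuclease gene REXO1, and USP17L genes encode deubiquitinating enzymes in a repeat whose copy number varies between people. In RefSeq names of GRCh38.p14, RNA5S counted 17 rRNA genes on chromosome 1, the USP17L family 23 genes on chromosome 4 of which 19 were protein-coding, and the REXO1L family 11 pseudogenes on chromosome 8. An assembly may hold fewer copies of such an array than the cells do, and reads of the missing copies then pile onto those that are present.

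The study mapped replication start sites and chromatin binding in 2 established lines, the colon carcinoma line HCT116 and the chronic myelogenous leukaemia line K562. Start sites were read from nascent strands, short new DNA that resists exonuclease digestion because of its RNA primer. Binding was read by ChIP-seq of pSIRT1 (SIRT1 with a phosphate on T530), of pMCM2 (MCM2 with a phosphate on S139) and of H4K16ac (acetylated lysine 16 of histone H4). SIRT1 is a protein deacetylase, MCM2 a subunit of the replicative helicase, and H4K16ac a histone mark that SIRT1 removes.

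The HCT116 nascent-strand libraries came from a SIRT1-depleted clone, from a depleted clone rescued with SIRT1 of the T530A mutation (alanine in place of the phosphorylated threonine), from unmodified cells kept for 24 h in 200 nM aphidicolin, which blocks replicative DNA polymerases, and for 24 h after its removal, and from a depleted clone rescued with wild-type SIRT1. The 3 clone libraries thus share the SIRT1 depletion, each clone being 1 line. The aphidicolin library has no untreated partner among the lists and is set beside the wild-type rescue, which is a different line. K562 cells were fractionated by elutriation for ChIP into G1 and G2 and into the early, middle and late parts of S phase, with 1 unfractionated pSIRT1 library, and fractionated into early, middle and late S for nascent strands. HCT116 ChIP used unmodified cells. Each group was 1 library without a replicate, which allows no tests, and intervals cover counting error only. The lists held between 24359 and 230760 regions each. Their listed reads summed to between 578108 and 20014274 in the 18 lists of read counts, while 3 lists hold scores and were used for ranks only. A stretch with no region is one that the authors' caller did not list, which is not the same as a stretch with no reads.

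**Figure D1:**
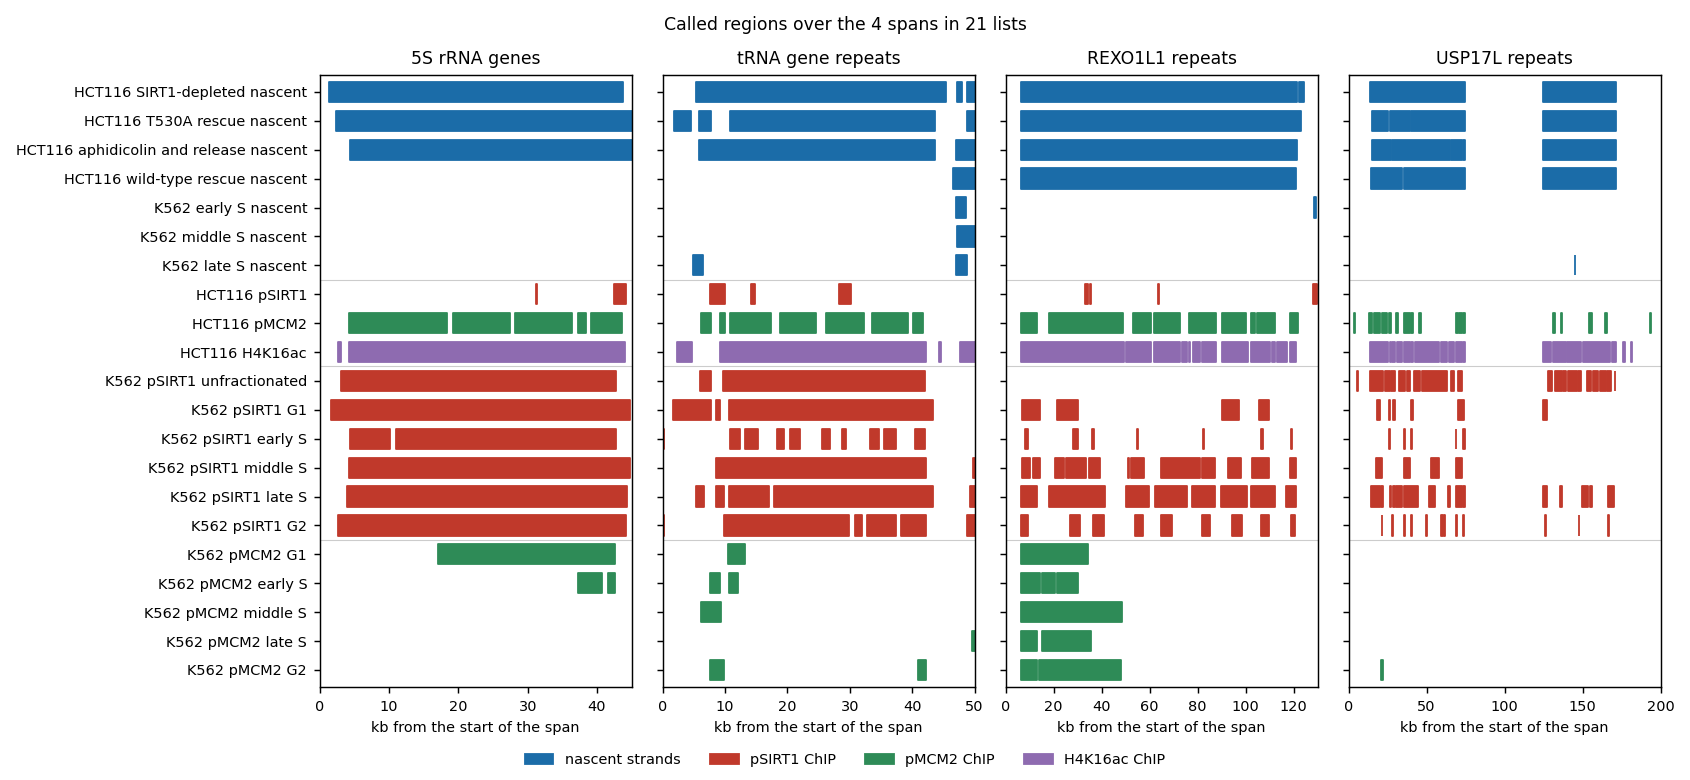
Called regions (bars) of 21 lists, 1 per row, over the 4 spans; the x axis is the distance in kb from the start of each span and colours mark the assay. The REXO1L1 regions begin at nearly the same base in most lists, the K562 nascent-strand rows are nearly empty, and the middle of the USP17L span is empty in every list.

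The spans differed in which lists ranked them high. The 5S rRNA genes had a region in 14 of 21 lists, and in 13 of these the highest one stood in the top 1% of its list by deposited value. The REXO1L1 repeats had a region in 18 lists, with 13 in the top 1%, the tRNA gene repeats a region in 21 lists with 10 in the top 1%, and the USP17L repeats a region in 14 lists with 5. By construction 0.99 to 1% of the regions of a list pass this limit. A span counts by the highest of its regions, so this share holds for a region and not for a span. Summed reads favour wide regions. With the 18 lists of counts ranked by reads per kb and the 3 others by score, 7 lists held the 5S rRNA genes in their top 1%, 7 the tRNA gene repeats, 8 the REXO1L1 repeats and 3 the USP17L repeats. The densest region of a span was used here, whatever its width. HCT116 pSIRT1 counted for REXO1L1 only through a region of 199 bp with 21 reads.

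At the very top of the lists, the REXO1L1 region was among the 10 highest in 4 lists and first in 3 of them, all HCT116 nascent-strand lists. The 5S rRNA region was among the 10 highest in 5 lists and first in 1, K562 pSIRT1 in G2. The tRNA gene repeats were among the 10 highest in 2 lists, and the USP17L repeats in 0. Width gave a similar order, with a region in the top 1% by width in 13 lists for REXO1L1, 12 for the 5S rRNA genes, 10 for the tRNA gene repeats and 6 for USP17L. Among the 4 spans, each HCT116 nascent-strand list ranked REXO1L1 highest and each K562 pSIRT1 list ranked the 5S rRNA genes highest.

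**Figure D2:**
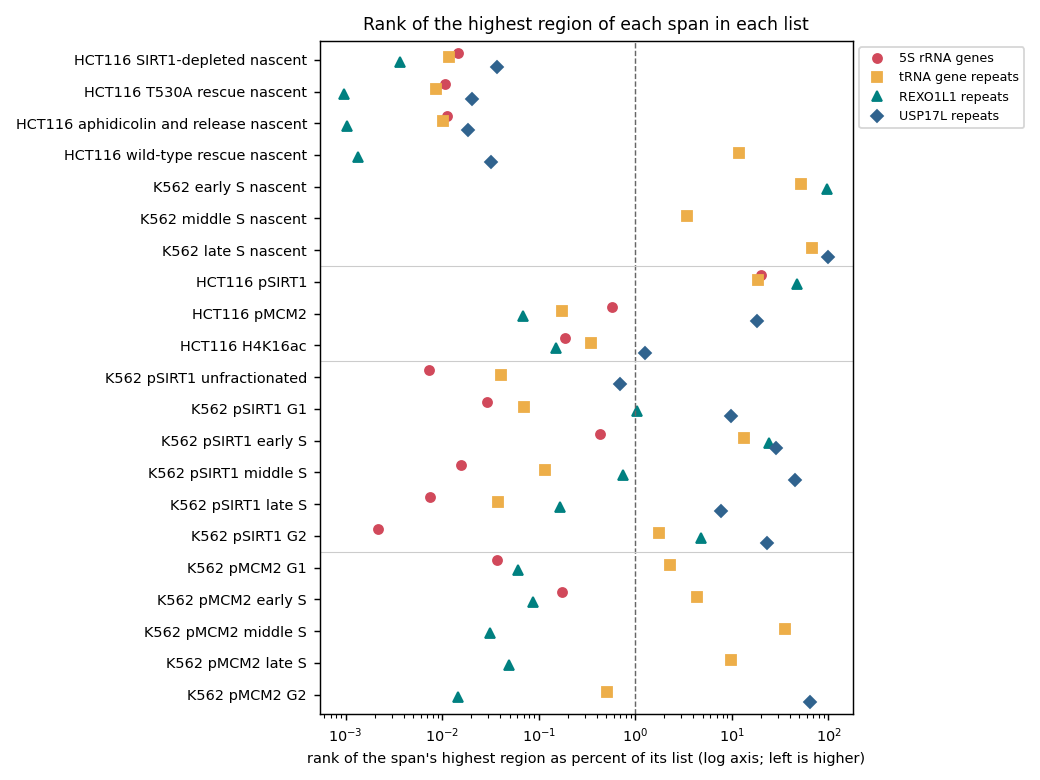
Rank of the highest region of each span in each list, as a percent of the list's regions on a log axis (left is higher; the dashed line is 1%); a span with no region in a list has no point. The 4 HCT116 nascent-strand lists hold the REXO1L1 repeats at ranks 4, 1, 1 and 1, and the K562 pSIRT1 lists hold the 5S rRNA genes left of the other spans.

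Over RNA5S1 and the other 5S rRNA genes, 3 of the 4 HCT116 nascent-strand lists had 1 unbroken region across the array, and the wild-type rescue list had none. In SIRT1-depleted cells chr1:228741401-228783800 carried 9032 reads and ranked 16 of 109990 regions. In T530A rescue cells chr1:228742401-228785000 carried 6322 reads and ranked 11. In aphidicolin-treated cells chr1:228744401-228785000 carried 5771 reads and ranked 11. These reads were 0.0451% of all listed reads in SIRT1-depleted cells (95% exact binomial interval 0.0442 to 0.0461), 0.0407% in the T530A rescue (0.0397 to 0.0417) and 0.0421% in aphidicolin-treated cells (0.0410 to 0.0432).

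Shares of the 5S array thus lay between 0.0407 and 0.0451% in these 3 libraries, while the wild-type rescue had no region to set beside them. There the nearest regions lay 36.6 kb to the left and 27.6 kb to the right of chr1:228744201-228784200, the stretch from the first to the last step that at least 7 of the 21 lists covered, and 86 regions were listed within 1 Mb on either side. Set against regions within the same 1 Mb flanks, reads per covered kb of the 5S span were higher by 1.89 on the log2 scale in SIRT1-depleted cells, 1.73 in the T530A rescue and 1.72 in aphidicolin-treated cells, at 213, 148 and 142 reads per kb.

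The main block of the tRNA gene repeats had the same pattern. SIRT1-depleted cells had chr1:161405401-161445400 with 10879 reads, which ranked 13. T530A rescue cells had chr1:161410801-161443600 with 7218 reads, ranked 9, and aphidicolin-treated cells had chr1:161405801-161443600 with 7271 reads, ranked 10. Wild-type rescue cells had no region on this block. Their 1 region in the span was chr1:161446601-161453400, beyond a stretch of 1.2 kb (chr1:161445401-161446600) that no list covered, and it held 338 reads at rank 8837.

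Left of that stretch, reads per covered kb of the block were 272 in SIRT1-depleted cells, 211 in the T530A rescue and 192 in aphidicolin-treated cells, against 0 covered bases in wild-type rescue cells. Right of it, they were 44.9, 47.7 and 41.1 against 49.7 in wild-type rescue cells, so the right side was listed at a similar density in all 4 libraries and the left side in 3 of them. The whole span stood above its flanks by 2.45, 2.11 and 2.09 on the log2 scale in SIRT1-depleted, T530A rescue and aphidicolin-treated cells, against 0.36 in wild-type rescue cells, where the value rests on the right-hand region alone.

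How common such an absence was can be read from the rest of each list. Of the highest 1% of SIRT1-depleted regions, 177 of 1099 (16.1%) had no region in the wild-type rescue list, and both the 5S and the tRNA region were among them. For T530A rescue cells it was 41 of 1039 (3.95%) and for aphidicolin-treated cells 41 of 969 (4.23%). Absence was far more common over regions of every height: 49.2% of all SIRT1-depleted regions, 42.3% of all T530A rescue regions and 43.7% of all aphidicolin regions had none in the wild-type rescue list. Among the absent regions of the highest 1%, the tRNA region was the highest by reads in T530A rescue and in aphidicolin-treated cells. The 5S region came next in each. In SIRT1-depleted cells other absent regions were higher, chr18:105201-112600 with 42327 reads being the first. All 3 comparisons share the wild-type rescue library, so these are not separate observations of its missing regions. The genomic DNA controls were not analysed here, and the array copy number of a clone and its nascent-strand enrichment cannot be told apart.

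**Figure D3:**
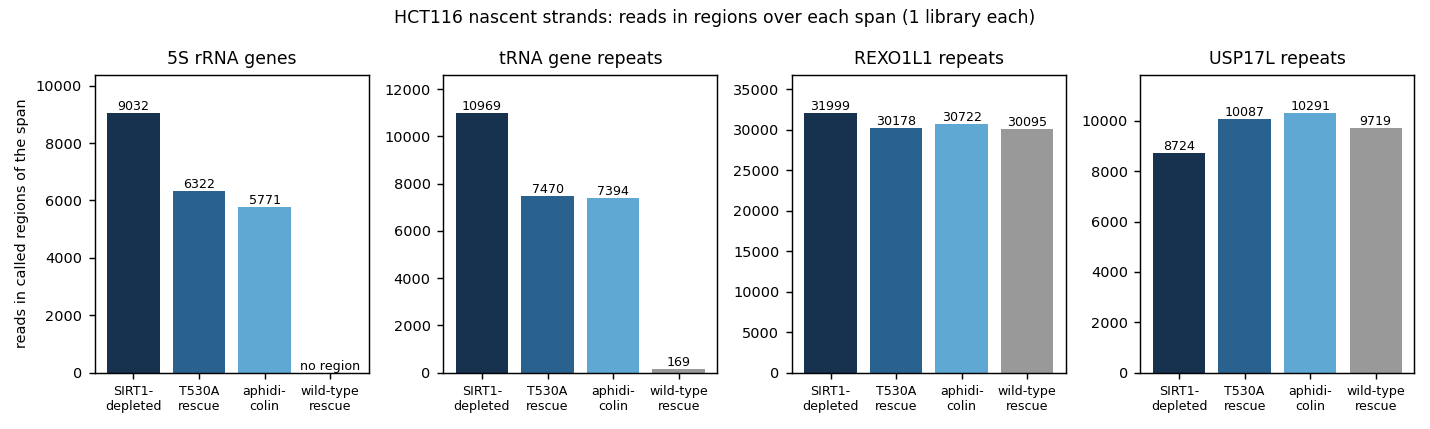
Reads in called regions of each span (y axis, bars from 0) in the 4 HCT116 nascent-strand libraries, 1 library each and without error bars. The 5S rRNA genes and the tRNA gene repeats have 9032 and 10969 reads in SIRT1-depleted cells against no region and 169 reads in wild-type rescue cells, while the REXO1L1 bars lie between 30095 and 31999.

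The REXO1L1 repeats had nearly the same number of listed reads in all 4 HCT116 nascent-strand libraries. A region from chr8:86726401 carried 31937 reads and ranked 4 in SIRT1-depleted cells, 30178 reads in T530A rescue cells, 30722 reads in aphidicolin-treated cells and 30095 reads in wild-type rescue cells, ranking 1 in the last 3. These regions were 115000, 116600, 115000 and 114800 bp wide and stood 2, 2, 1 and 3 by width. Reads per covered kb were 274, 259, 267 and 262, which was 1.48, 1.64, 1.80 and 1.75 above the flanks on the log2 scale.

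As a share of listed reads, REXO1L1 took 0.160% in SIRT1-depleted cells, 0.194% in the T530A rescue and 0.224% in aphidicolin-treated cells, against 0.201% in wild-type rescue cells. The log2 ratio of shares over wild-type rescue was -0.33 (interval -0.35 to -0.31) for SIRT1-depleted cells, -0.05 (-0.07 to -0.03) for T530A rescue cells and 0.16 (0.13 to 0.18) for aphidicolin-treated cells. The median ratio of all regions shared by the 2 lists was -0.46, -0.18 and -0.05, so the REXO1L1 ratio lay a little above it in each comparison. For scale, 4.49% of shared regions lay at least 1 higher and 23.7% at least 1 lower on the log2 scale in SIRT1-depleted than in wild-type rescue cells. It was 3.18% and 12.7% in T530A rescue cells, and 4.75% and 11.4% in aphidicolin-treated cells. The REXO1L1 and USP17L repeats reached neither limit in any of these comparisons, while the ratio of the tRNA span, 5.60, 5.41 and 5.58 in that order, sets the block against the right-hand region and is a matter of absence.

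The USP17L repeats were also listed in all 4 of these libraries. They had 8724 reads in SIRT1-depleted cells, 10087 in the T530A rescue and 10291 in aphidicolin-treated cells, against 9719 in wild-type rescue cells. As a share of listed reads they ran from 0.0436% in SIRT1-depleted cells to 0.0751% in aphidicolin-treated cells. The log2 ratio of shares over wild-type rescue cells was -0.57 (-0.62 to -0.53) in SIRT1-depleted cells, 0.00 (-0.04 to 0.04) in the T530A rescue and 0.21 (0.17 to 0.25) in aphidicolin-treated cells.

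USP17L regions lay in 2 blocks on either side of chr4:9274601-9324600, 50 kb without a region in any list. On the left block, chr4:9214801-9274600, reads per covered kb were 83.3 in SIRT1-depleted cells, 103 in the T530A rescue, 107 in aphidicolin-treated cells and 98.0 in wild-type rescue cells. On the right block, chr4:9324601-9367800, they were 77.5, 87.3, 90.0 and 84.6. Each library was thus a little denser on the left block. The highest USP17L regions held 5097 reads at rank 41 in SIRT1-depleted cells, 4069 at rank 21 in T530A rescue cells, 4192 at rank 18 in aphidicolin-treated cells and 4154 at rank 24 in wild-type rescue cells.

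Against SIRT1-depleted cells the spans split into pairs. In T530A rescue cells the log2 ratio of shares was -0.15 for the 5S rRNA genes and -0.19 for the tRNA gene repeats, and 0.28 for REXO1L1 and 0.57 for USP17L, around a median of 0.23 over shared regions. In aphidicolin-treated cells it was -0.10 and -0.02, and 0.49 and 0.78, around a median of 0.41. The 5S and tRNA spans lay below the median and USP17L above it in both, which share the SIRT1-depleted library. No span passed 1 in either direction. Of all shared regions, 14.4% were at least 1 higher and 7.6% at least 1 lower in T530A rescue cells, and 21.8% and 7.72% in aphidicolin-treated cells.

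The K562 nascent-strand lists held almost nothing on these arrays. The 5S rRNA genes had no region in early, middle or late S. The REXO1L1 span had 1 region of 30 reads in early S, outside the array, and none in middle and late S. The USP17L span had 1 region of 20 reads, in late S only. The tRNA span had edge regions only, of 58 reads in early S, 309 in middle S and 47 and 51 in late S, and no list had more than 1.02% of the block left of the uncovered stretch.

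The ratio of tRNA shares, 1.06 (0.61 to 1.53) in middle S and 0.54 (0.06 to 1.04) in late S over early S, concerns these edges, and per covered kb it was 0.25 and -0.55. Of shared regions, 5.48% were at least 1 higher and 6.22% at least 1 lower in middle S, and 4.45% and 7.38% in late S. Many other high regions of HCT116 were also missing in K562. Of the highest 1% of SIRT1-depleted regions, 72% had no region in K562 early S, 62.1% in middle S and 60.2% in late S. It was 60.8, 58.6 and 58.1% of the T530A rescue regions, and 56.9, 52.8 and 54.7% of the aphidicolin regions. Of the wild-type rescue regions it was 49.9, 49.3 and 48.1%. Over all regions of these 4 lists the share was 60.6 to 73.7%. Absence from the K562 lists was thus common among HCT116 regions, and why the arrays were missing there was not tested.

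In HCT116 ChIP, pMCM2 covered 56.4 to 80.4% of the 5S, tRNA and REXO1L1 spans and 13.5% of USP17L, H4K16ac covered 47.8 to 89.6% of the 4 spans, and pSIRT1 covered at most 9.99% of any. Over the 5S rRNA genes pMCM2 had 5 regions on 80.4% of the span with 2496 reads, the highest with 1027 at rank 877 of 151777. H4K16ac covered 89.6% of it, with a score of 862 at rank 435 of 230760. The pSIRT1 list had 2 regions there, of 16 and 101 reads on 4.44% of the span, and the higher was at percentile 79.9 of its list.

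On the tRNA gene repeats pMCM2 had a row of regions of like size. The chr1:161410801-161417400, chr1:161418801-161424600, chr1:161426201-161432200 and chr1:161433601-161439400 regions carried 1989, 1979, 1895 and 2017 reads, and a last one at chr1:161440201-161441800 carried 1271. Covered and uncovered 200 bp steps of this list repeated best at a lag of 7.4 kb (r = 0.64, a description over steps of 1 list). In the other lists with 4 or more tRNA regions the best lag ran from 3.2 to 15 kb, with r from -0.14 to 0.50. The span took 0.0653% of listed pMCM2 reads and stood 2.38 above its flanks, while on the 5S rRNA genes pMCM2 was at -0.12. H4K16ac had 1 region of score 606 at rank 808 over the tRNA block, and pSIRT1 had 3 regions of 40 to 106 reads.

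Over REXO1L1 the HCT116 pMCM2 list had 9 regions on 68.9% of the span. The highest held 3144 reads at rank 105, and the span stood 0.35 above its flanks. H4K16ac had 12 regions on 79.1% of it, the highest with a score of 977 at rank 347. The pSIRT1 list had 4 regions of 19 to 53 reads on 2.46%, of which chr8:86848201-86849799 (41 reads) lay outside the array. Over USP17L, H4K16ac had 18 regions on 47.8% of the span, pMCM2 17 small ones with 921 reads in all, 1.20 below the flanks on the log2 scale (log2 of -1.20), and pSIRT1 none. Of the highest 1% of SIRT1-depleted nascent-strand regions, 2.64% had no region in the HCT116 pSIRT1 list, both USP17L blocks among them. It was 1.09% for pMCM2 and 0% for H4K16ac, with none of the spans among them. Over all SIRT1-depleted regions, 37.3% had none in the pSIRT1 list, 46.4% none in the pMCM2 list and 22.8% none in the H4K16ac list.

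In K562 each of the 6 pSIRT1 lists had called regions over most of the 5S array. Unfractionated cells had 4200 reads at rank 7, 0.105% of listed reads and 2.58 above the flanks. G1 cells had 3748 reads at rank 22 (0.121%, interval 0.117 to 0.125), early S cells 4229 reads in 2 regions with the higher at rank 157 (0.0857%, 0.0831 to 0.0883), and late S cells 9337 reads at rank 9 (0.0844%, 0.0827 to 0.0862). Middle S and G2 hold scores, of 7889 at rank 4 and 23664 at rank 1.

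The 5S array was thus among the highest 22 regions in 5 of the 6 lists and lower in early S. In early S the surroundings also differed, as regions within 1 Mb held 228 reads per covered kb, against 15.1 in G1. The span stood 1.02 below them on the log2 scale (log2 of -1.02) in early S, where G1 had 2.52 and late S 2.23 above. Against the median of all regions of the early S list, the 5S span was 0.89 higher.

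The tRNA gene repeats were among the highest 53 regions in 4 of the 6 lists. The highest region had 1845 reads at rank 39 in unfractionated cells, 2016 at rank 53 in G1 and 5609 at rank 46 in late S, and a score of 3252 at rank 30 in middle S. In early S it broke into 10 regions of 25 to 168 reads on 26.4% of the span, and in G2 into 6 with a highest score of 3155 at rank 798. Regions of these 2 lists were narrow throughout. The median width was 400 bp in early S and 800 bp in G2, against 1800 bp in G1 and 1600 bp in late S. The share of listed reads was 0.0670% in G1, 0.0250% in early S and 0.0651% in late S.

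In K562 pSIRT1, REXO1L1 had a different course from the 5S and tRNA spans. It had no region in unfractionated cells, whose nearest regions lay 613.4 kb to the left and 43 kb to the right of the array, with 11 within 1 Mb. It had 796 reads on 21.4% of the span in G1, 343 on 4.92% in early S and 8220 on 66.9% in late S. Scores over 12 regions reached 1083 at rank 189 in middle S, and over 9 regions 1647 at rank 2187 in G2. Of the highest 1% of late S regions 6.66% had no region in the unfractionated list, and 6 of the 8 REXO1L1 regions were among them. Over all late S regions it was 54.4%.

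Over G1, the log2 ratio of late S shares was 1.53 (1.43 to 1.64) for REXO1L1, 0.86 (0.63 to 1.09) for USP17L, -0.04 (-0.11 to 0.03) for the tRNA gene repeats and -0.52 (-0.57 to -0.46) for the 5S rRNA genes. The median over shared regions was -0.44, with 7.22% of them at least 1 higher and 27.9% at least 1 lower. The higher REXO1L1 and USP17L shares came with wider coverage, since per covered kb the ratio was -0.11 for REXO1L1 and -1.15 for USP17L. In early S over G1 the ratios were -0.50 for the 5S rRNA genes, -1.42 for the tRNA gene repeats, -1.89 for REXO1L1 and -1.16 for USP17L. There 21.9% of shared regions were at least 1 higher and 26.7% at least 1 lower, and per covered kb the last 3 spans had ratios of 0.16, 0.23 and 1.19, so the lower shares came with less coverage. The G1 library is common to both.

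**Figure D4:**
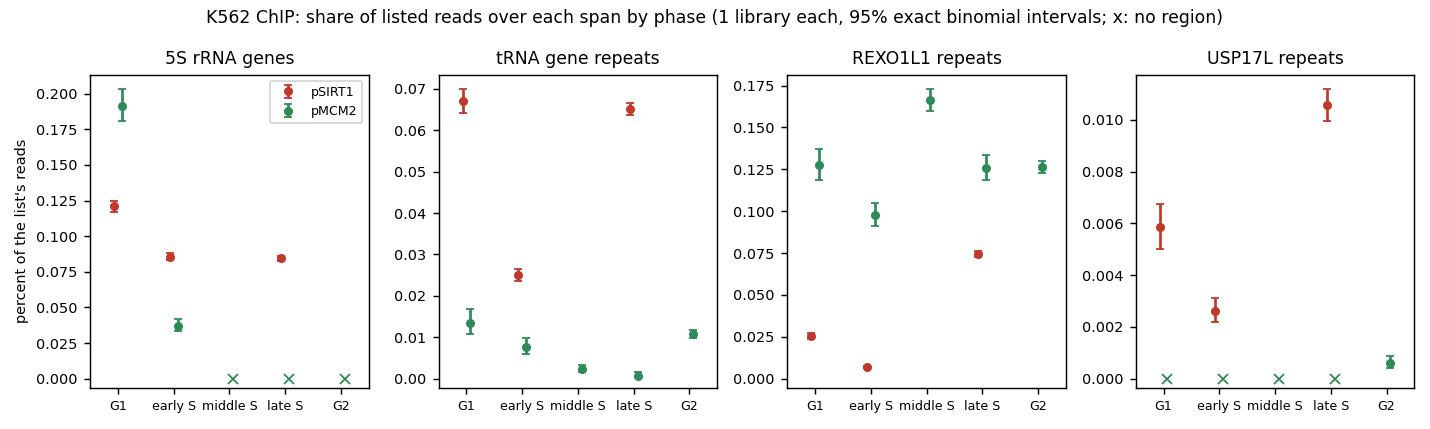
Share of listed reads over each span (y axis, percent, a scale of its own per panel) in K562 pSIRT1 and pMCM2 libraries by phase, with 95% exact binomial intervals for counting error; crosses mark no region, and pSIRT1 has no points in middle S and G2, whose lists hold scores. REXO1L1 has pMCM2 shares of 0.0978 to 0.166% in all 5 phases, while the 5S rRNA genes have pMCM2 regions in G1 and early S only.

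K562 pMCM2 was listed on the 5S rRNA genes in G1 and early S and on REXO1L1 in all 5 phases. In G1 chr1:228757001-228782600 held 1108 reads at rank 9, which was 0.192% of listed reads (0.181 to 0.203) and 1.91 above the flanks. In early S 2 regions of 233 and 89 reads lay on 10.2% of the span, with 0.0372% of listed reads (0.0333 to 0.0415). Middle S, late S and G2 had no region on the array, with 62, 66 and 126 regions within 1 Mb of it. Of the highest 1% of G1 regions, 3.29% had no region in early S cells, 17.7% none in middle S cells, 9.47% none in late S cells and 34.2% none in G2 cells, and the 5S region was among those missing in the last 3. Over all G1 regions the shares were 54.6, 63.2, 56.7 and 54.1% in the same order.

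The pMCM2 regions on REXO1L1 all lay in the left part of the array. They began at chr8:86726401 in each of the 5 phases and ended between 86750200 and 86768400. They held 738 reads in G1, 846 reads in early S, 2309 reads in middle S, 1156 reads in late S and 5379 reads in G2, at highest ranks of 15, 38, 11, 21 and 12. The share of listed reads was 0.128% in G1 cells, 0.0978% in early S cells, 0.166% in middle S cells, 0.126% in late S cells and 0.126% in G2 cells. Of the highest 1% of G2 regions 9.79% had no region in the unfractionated pSIRT1 list, and both REXO1L1 regions were among them, where over all G2 regions it was 64.4%. The span stood between 1.39 and 2.07 above its flanks in these phases. Those flanks held few regions, from 2 on 2000 bp in G1 to 32 on 32000 bp in G2.

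Over G1 the log2 ratio of REXO1L1 shares was -0.38 (-0.53 to -0.24) for early S, 0.38 (0.26 to 0.50) for middle S, -0.02 (-0.15 to 0.12) for late S and -0.02 (-0.13 to 0.10) for G2, all sharing the G1 library. The median over shared regions was -0.72 for early S, -0.46 for middle S, -0.56 for late S and -1.22 for G2, so REXO1L1 lay above it in each. Per covered kb REXO1L1 was at -0.05, -0.20, 0.03 and -0.57 in the same order, so the sign turned in middle S and in late S. The 5S rRNA genes were at -2.36 (-2.55 to -2.18) in early S. Per covered kb they were at 0.11, with 70.0 reads per kb on 4600 covered bp in early S against 43.3 on 25600 in G1. Of shared regions, 2.84% were at least 1 higher and 34.3% at least 1 lower in early S. The same shares were 7.51% and 28.3% in middle S. They were 3.98% and 27.3% for late S and 2.88% and 58.1% for G2.

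On the tRNA gene repeats K562 pMCM2 had small regions, of 78 reads in G1 cells, 11 and 55 in early S cells, 32 in middle S cells and 38 in late S cells. The G1 region, chr1:161410401-161413200, and the larger early S region, chr1:161410601-161412000, overlapped, and the late S region lay across the right edge of the span. A small G2 region, chr1:161407601-161409800, held 36 reads and overlapped the smaller early S region and the middle S region. Also in G2, chr1:161441001-161442200 held 420 reads at rank 426 of 82751, at 350 reads per kb. That position overlaps the narrow, dense last region of the HCT116 pMCM2 row, which had 794 reads per kb. The log2 ratio of tRNA shares over G1 was -0.82 for early S, -2.55 for middle S, -4.16 for late S and -0.33 for G2. Only early S had a region overlapping that of G1, so the other ratios set regions at different places against each other. On USP17L the pMCM2 lists had 1 region, of 26 reads in G2.

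USP17L in K562 pSIRT1 was covered best in unfractionated cells, with 20 regions, 1400 reads and 37.0% of the span. The highest had 266 reads at rank 665, in the top 1% of the list by summed reads but at percentile 45.5 by reads per kb, and the span was at log2 of -0.10 against its flanks. It had 181 reads in 6 regions in G1, 129 in 5 in early S and 1169 in 15 in late S, and in these 3 phases it also stood below its flanks, at log2 of -0.06, -1.61 and -0.57.

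**Figure D5:**
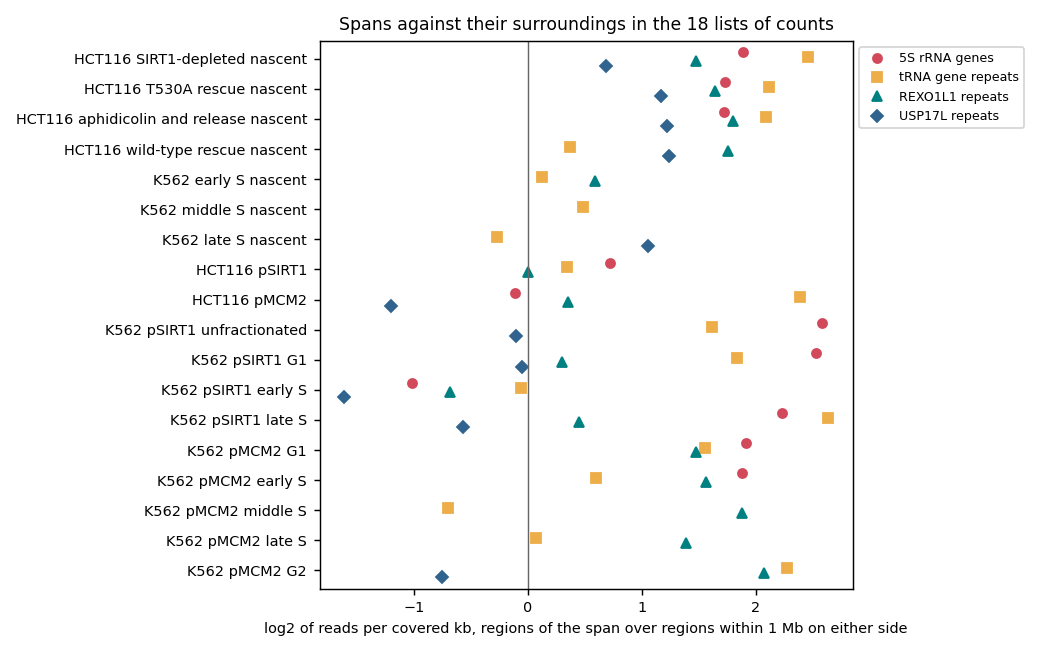
Reads per covered kb of each span over that of regions within 1 Mb on either side, on a log2 axis, in the 18 lists of counts (1 point per span and list; 0 is equal). The tRNA gene repeats reach 2.63 in K562 pSIRT1 late S, the 5S rRNA genes 2.58 in unfractionated K562 pSIRT1, and USP17L lies between -1.61 and 1.23.

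The REXO1L1 array had a common left edge across lists. The first REXO1L1 region began within 200 bp of chr8:86726401 in 15 of the 18 lists with a region mostly inside the span, in both lines and in the 4 assays. The other arrays had no such common start: the most common first start was shared within 200 bp by 5 of 14 such lists at the 5S rRNA genes, 4 of 19 at the tRNA gene repeats and 3 of 14 at USP17L. Where REXO1L1 was broken into several regions, coverage repeated best at a lag of 12.2 kb in HCT116 pMCM2 (r = 0.27), 12.2 kb in HCT116 H4K16ac (r = 0.30), 12.2 kb in K562 pSIRT1 late S (r = 0.14) and 12 kb in G2 (r = 0.24). In G1, early S and middle S pSIRT1 the best lag was 15.8, 6.8 and 9.8 kb.

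USP17L coverage repeated best at 4.8 kb in HCT116 pMCM2 (r = 0.38), 4.6 kb in H4K16ac (r = 0.63) and 4.8 kb in unfractionated K562 pSIRT1 (r = 0.55), and at 9.4 to 19 kb in the other 5 lists, with r from 0.08 to 0.80. The 0.80 was at 17.6 kb in K562 pSIRT1 middle S, over 4 regions. These lags were looked for between 2 and 20 kb and describe where regions fall along an array, with a few regions in each list.

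Within a list, the height of an array over its flanks and the number of copies that the assembly lacks cannot be told apart here. Libraries of a line in which a span was listed high and those in which it was not also differed in clone, treatment, antibody or phase, and the part of copy number in these differences was not tested.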

How the data were processed

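The 4 spans and the limits used were chosen with earlier results of these data known. Coordinates are on hg19 and MACS and SICER are the tools named, per the submitters' processing notes. Randomly sheared DNA of each line was the control for calling, per the labels. Which aligner and caller settings were used, and how reads that map to several places were treated, is not given in the sources used here. Each region of 18 lists has a whole number from the authors, taken as a read count. The authors deposited a decimal score per region in 2 (K562 pSIRT1 middle S and G2). In the HCT116 H4K16ac list the authors deposited a score per peak, beside −log10 p, −log10 q and the fold over control, and the score alone was used. The units were read from the values, since the lists have no headers. The counts, scores and peaks are the authors' own.

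Regions on chromosomes 1 to 22 and X were ranked within their list by value and by width. Reads of a region that crosses a span edge were taken in proportion to the overlap. Shares are of all listed reads, because library depth is unknown, with exact 95% binomial intervals, and ratios of shares have exact conditional binomial intervals. Both cover counting error only. The counting of overlaps and calls was tested on simulated data. Regions named by position were picked from those of the spans, and a few high regions outside the spans are named as well. Python 3.11.15, numpy 2.4.6, pandas 2.3.3, scipy 1.17.1 and matplotlib 3.10.9 were used. The 2 genomic controls were not analysed here.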

Additional observations from a re-analysis of the deposited data

Results flagged for a closer look

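Late S over G1 in K562, the log2 ratio of the REXO1L1 share of listed reads was 1.53 for pSIRT1 and -0.02 for pMCM2. The signs were opposite, but the pMCM2 interval of -0.15 to 0.12, which covers counting error only, includes 0. Per covered kb the ratios were -0.11 for pSIRT1 and 0.03 for pMCM2, and the medians over shared regions, -0.44 and -0.56, lay below both share ratios. The difference was not tested, since each phase and antibody is 1 library. The pSIRT1 regions ran over the whole array in late S, while the pMCM2 regions stayed on its left part.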

How the results depend on the processing

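No paired analysis was possible because each group is 1 library. With reads per kb in place of summed reads (scores as they stand), 7 lists rather than 13 held the 5S rRNA genes in their top 1%, 8 rather than 13 the REXO1L1 repeats and 3 rather than 5 the USP17L repeats. The 8 include HCT116 pSIRT1, which is not among the 13 and passed through a region of 199 bp with 21 reads. With the top 0.1%, 6 lists rather than 10 held the tRNA gene repeats and 9 rather than 13 the 5S rRNA genes. The counts for REXO1L1 and USP17L changed by no more than 1.5 times under this limit. Counted per covered kb, the spans at least 1 apart on the log2 scale were 0 rather than 1 for nascent strands in middle S over early S, 1 rather than 3 for pSIRT1 in early S over G1, and 0 rather than 1 for pMCM2 in early S over G1. Within the same chromosome, or with the median of shared regions set to 0, they were 2 rather than 1 for pSIRT1 in late S over G1, and with that median at 0, 1 rather than 0 for pMCM2 in G2 over G1. Signs turned in these values of at least 1 in size: the 5S span in pSIRT1 early S was 0.89 above the list median but -1.02 against its flanks, and per covered kb the ratios were 0.16 for tRNA, 0.23 for REXO1L1 and 1.19 for USP17L in pSIRT1 early S over G1, -0.11 for REXO1L1 in late S over G1, and 0.11 for the 5S rRNA genes in pMCM2 early S over G1. The 5S value turned with the change from its flanks to the list median, and the ratios with the division by covered length. Ratios under 1 also turned per covered kb: USP17L in pSIRT1 late S over G1 was -1.15 rather than 0.86, the tRNA span in nascent strands of late S over early S -0.55 rather than 0.54, REXO1L1 in pMCM2 middle S over G1 -0.20 rather than 0.38, and 4 ratios within 0.05 of 0 turned as well. Joining regions within 1 kb or asking for 50% of a region in the span moved none of the 4 counts of lists in the top 1% past 1.5 times. Depth beyond the listed reads is unknown, and stretches under the caller's limit cannot be ranked.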

Other observations

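The chromosome 8 flank of the REXO1L1 repeats held another high region, which was among the 10 highest in 3 of the HCT116 nascent-strand lists. It was chr8:86552601-86576400 with 8403 reads at rank 6 in T530A rescue cells and chr8:86554001-86576400 with 8480 reads at rank 8 in aphidicolin-treated cells, against chr8:86552601-86576400 with 8504 reads at rank 4 in wild-type rescue cells. In SIRT1-depleted cells the nearest region to the left of the array also ended 150 kb from it. It counts among the flanks of the REXO1L1 span, so the height of the span over its flanks is measured against it too. The K562 early S, middle S and late S nascent-strand lists had no region under it. This held for the region of T530A rescue, aphidicolin-treated and wild-type rescue cells. Of the highest 1% of these HCT116 lists, 48.1 to 60.8% had no region in a K562 list, and of all their regions 60.6 to 68.2%.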
